A study of Drosophila melanogaster with 5 samples.

Results

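The neighbouring microRNA hairpins mir-317, mir-277 and mir-34 were followed in small RNA libraries of the Drosophila melanogaster intestine and of the carcass that remains once the intestine is taken out. Members were the count rows named for these 3 hairpins, which are 6 mature arms of the 479 arms and 259 hairpins counted. The flies of both groups were adult males, 2 to 3 days old and kept on standard food, of w1118, a laboratory stock with white eyes that served as wild type. The intestine group had 3 libraries of dissected intestines, and the carcass group had 2 libraries of everything else in the fly; both were made from RNA of 18 to 29 nt, and neither carried a treatment or a transgene. The labels state that RNA was prepared in 3 replicates from both tissues, but only 2 carcass libraries are given. They do not tell whether the replicates come from separate flies or from a shared pool of flies. The p-values here reflect no more than library-to-library spread, which may be technical.

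A microRNA is cut from a hairpin precursor, and each side of the hairpin, the 5p and the 3p arm, can leave a mature RNA; usually one arm is loaded into Argonaute and kept and the other is degraded. Neighbouring hairpins on one strand are often cut from a shared primary transcript. In flies, miR-34 is known for rising in the ageing brain and for protecting against its degeneration, miR-277 for restraining the breakdown of branched-chain amino acids and for an effect on lifespan, and miR-317 for a role in Toll immune signalling.

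In the BDGP6.54 annotation the hairpins lie on the plus strand of chromosome 3R and span 9.9 kb. The mir-317 hairpin (FBgn0262378) occupies 10091126 to 10091217, mir-277 (FBgn0262419) 10100022 to 10100121 and mir-34 (FBgn0262459) 10100936 to 10101034. The gap between mir-317 and mir-277 is 8804 bases, whereas mir-277 and mir-34 are 814 bases apart. A non-coding gene on the same strand, lncRNA:CR43459 (FBgn0263413), runs from 10093761 to 10101356, so mir-317 lies before its annotated start. Of its 3 annotated transcripts, RC spans both mir-277 and mir-34. Transcript RB ends at 10100302, after mir-277 but before mir-34, and RA ends at 10094625 and spans neither. The nearest protein-coding gene, Fmr1, lies on the other strand, and its end is 385 bases beyond mir-34. The more abundant arms are miR-317-3p (10091181 to 10091204, 24 nt), miR-277-3p (10100080 to 10100102, 23 nt) and miR-34-5p (10100952 to 10100975, 24 nt). Their partners are miR-317-5p (10091139 to 10091160), miR-277-5p (10100039 to 10100059) and miR-34-3p (10101003 to 10101025).

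**Figure D1:**
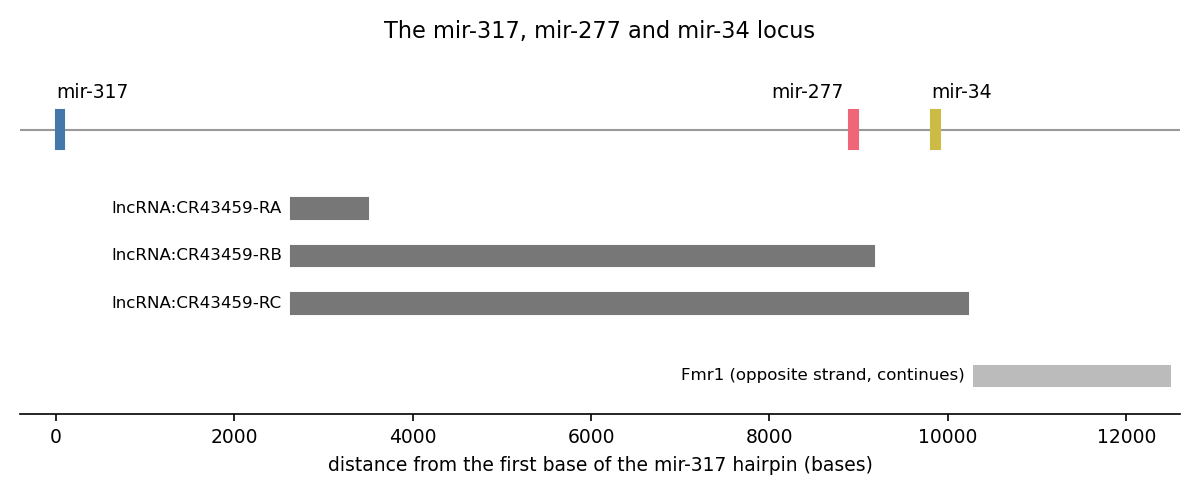
Map of the locus, with the distance from the first base of the mir-317 hairpin in bases on the horizontal axis; coloured blocks are hairpins, dark grey bars the 3 annotated transcripts of lncRNA:CR43459 and the light grey bar the nearest end of Fmr1. mir-317 lies 8804 bases before mir-277 and outside the annotated lncRNA, and mir-34 falls within transcript RC alone.

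The intestine libraries held 329424 to 547937 microRNA reads and the carcass libraries 1654625 and 3038873. All 6 arms had at least 66 reads in every library. The hairpin mir-958, an intestine marker, measured 191190 to 200001 CPM (reads divided by the microRNA total of the library and rescaled) in intestine libraries and 756 to 888 in carcass libraries. The neuronal mir-124 measured 43.4 to 63.7 CPM in intestine libraries and 5248 to 6615 in carcass libraries. The 14 testis hairpins summed to 24.4 to 36.4 CPM in the intestine, with mir-972, mir-975 and mir-977 at 0 there, and to 2265 to 2479 in the carcass. The muscle hairpins mir-1 and mir-133 summed to 27822 to 41637 CPM in the intestine, nearly all of it mir-1, and to 143062 to 153071 in the carcass. In bulk tissue such as this, fewer cells of a type and less RNA per cell cannot be told apart.

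The make-up of the cluster differed between the tissues, with mir-277 lower in the intestine relative to both other hairpins. mir-277 supplied 6.96%, 6.76% and 5.94% of the reads of the cluster in the intestine libraries, against 25.0% and 16.7% in the carcass libraries. mir-317 supplied 26.0%, 21.4% and 21.4% in the intestine, against 15.7% and 14.4% in the carcass. mir-34, with the most reads of the 3 in every library, supplied 67.0%, 71.8% and 72.6% in the intestine, against 59.3% and 68.9% in the carcass. The tissues did not overlap for mir-277 and mir-317, and they overlapped for mir-34. The order by reads thus was mir-34, mir-317 and mir-277 in each intestine library and mir-34, mir-277 and mir-317 in both carcass libraries.

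The mean share of the cluster was 6.55 ± 0.54% in the intestine and 20.8 ± 5.86% in the carcass for mir-277 (SD, n = 3 and 2). It was 23.0 ± 2.65% in the intestine and 15.05 ± 0.92% in the carcass for mir-317, and 70.5 ± 3.03% and 64.1 ± 6.78% for mir-34. The exact two-sided permutation test over libraries gave p = 0.2 for mir-277 and for mir-317, the smallest value that 3 against 2 libraries allow, and p = 0.4 for mir-34. The counting error was smaller than the spread between libraries, and the widest Wilson 95% interval of these shares ran from 72.2 to 73.1% (mir-34, intestine replicate 3). Such intervals cover counting error only, since reads without molecular identifiers are not independent molecules.

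**Figure D2:**
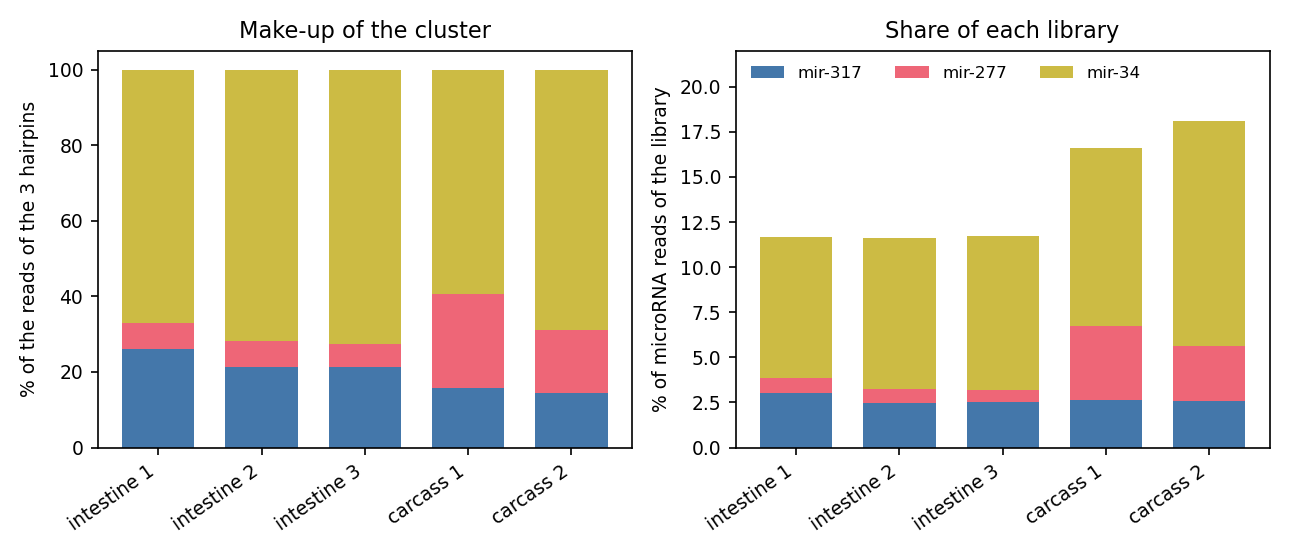
Stacked bars per library, intestine libraries to the left: the left panel gives the percentage of the cluster's reads that came from each hairpin, the right panel the percentage of all microRNA reads of the library. mir-277 makes up 5.94 to 6.96% of the cluster in the intestine, against 16.7 and 25.0% in the carcass, while the mir-317 band of the right panel stays between 2.48 and 3.04% in all 5 libraries.

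The ratio of 2 hairpins within a library does not depend on how libraries are scaled to each other. For every read of mir-277 there were 3.74, 3.17 and 3.61 reads of mir-317 in the intestine libraries and 0.629 and 0.862 in the carcass libraries. mir-317 thus had more reads than mir-277 in each intestine library and fewer in each carcass library. The difference of the log2 ratio was 2.29 (SE 0.38), a 4.88-fold higher mir-317 to mir-277 ratio in the intestine (edgeR diffSpliceDGE, adjusted p = 9.89e-08 over all pairs). limma on the per-library log2 ratios gave 2.25 (95% interval 1.78 to 2.72, adjusted p = 0.00199).

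The reads of mir-277 per read of mir-34, its neighbour at 814 bases, numbered 0.104, 0.0941 and 0.0817 in the intestine libraries and 0.421 and 0.242 in the carcass libraries. Every intestine value lay below both carcass values, although the carcass libraries differed from each other by 0.80 on the log2 scale, more than the 0.35 spanned by the intestine libraries. The difference of the log2 ratio was -1.79 (SE 0.32, edgeR adjusted p = 6.82e-07), so mir-34 outnumbered mir-277 by 3.46-fold more in the intestine. limma gave -1.78 (95% interval -2.46 to -1.10, adjusted p = 0.0138). Without carcass replicate 1 the difference was -1.38, and without carcass replicate 2 it was -2.18. These fits take their spread from the intestine libraries alone, so their calls are not given.

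The reads of mir-317 per read of mir-34 numbered 0.388, 0.298 and 0.295 in the intestine, against 0.265 and 0.209 in the carcass. All 3 intestine values lay above the carcass values, but the difference of 0.50 (SE 0.34) did not pass the test (edgeR adjusted p = 0.698). By limma the 95% interval was -0.028 to 0.96 (adjusted p = 0.264), so a ratio close to 2-fold higher in the intestine lies within the interval. The edgeR difference was 0.30 without carcass replicate 2 and 0.64 without carcass replicate 1.

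**Figure D3:**
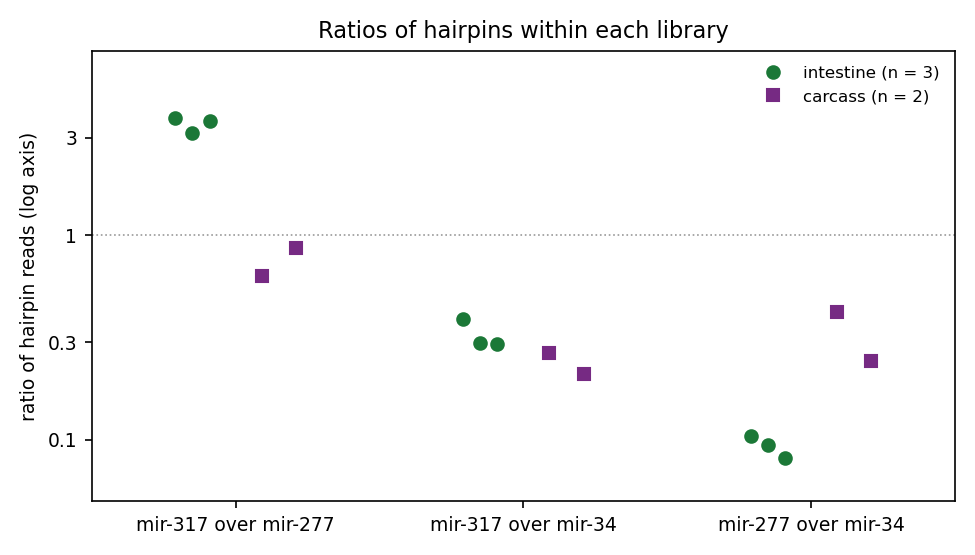
Ratio of hairpin reads within each library on a log axis for the 3 pairs, with intestine libraries as circles and carcass libraries as squares; the dotted line marks equal reads. mir-317 over mir-277 is 3.17 to 3.74 in the intestine, against 0.629 and 0.862 in the carcass, and mir-277 over mir-34 is 0.0817 to 0.104 in the intestine, against 0.242 and 0.421 in the carcass.

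The same test was made on all 132 pairs of hairpins that share a genomic cluster, and 9 of them (6.82%) were called by edgeR, 2 of the 3 pairs of this cluster among them. By limma 15 of the 132 pairs (11.4%) were called, again with these 2. Ratios that do not overlap between the tissues were found in 40.9% of the pairs, so the separation of all 3 member pairs says little by itself. Many pairs rest on few reads, and only 25 pairs in 12 clusters had at least 100 reads of both hairpins in both tissues. Of these 25 pairs edgeR called 7 (28%) and limma 8 (32%), so among well-covered pairs a call is less rare. Their median absolute difference of the log2 ratio was 0.51, and the ratios of mir-317 to mir-277 and of mir-277 to mir-34 took places 3 and 4 by size. The larger ones both involved mir-283, of the cluster in the intron of Gmap, with 3.44 against mir-304 and 2.93 against mir-12. The ratio of mir-317 to mir-34 was at place 14 of the 25. There were 13 such pairs of adjacent hairpins with a gap of at most 1000 bases, and the ratio of mir-277 to mir-34 differed the second most of these. The limit of 100 reads leaves out pairs with a hairpin that is scarce in 1 tissue. Among those left out, edgeR called the adjacent pairs of mir-13a with mir-13b-1 (-5.96) and of mir-2c with mir-13a (4.37), on 21 reads of mir-13a. Over all 132 pairs the ratios of mir-317 to mir-277 and of mir-277 to mir-34 took places 33 and 39 by size.

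**Figure D4:**
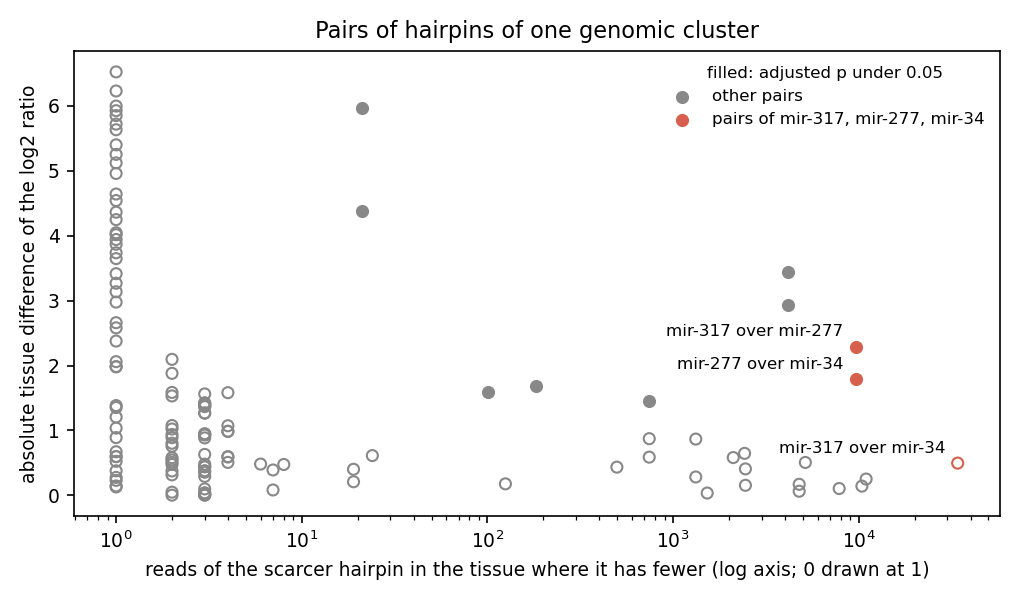
Each point is a pair of hairpins of one genomic cluster (132 pairs): the horizontal log axis gives the reads of the scarcer hairpin in the tissue where it has fewer, and the vertical axis the absolute difference of the log2 ratio between intestine and carcass. The pairs of mir-317 with mir-277 (2.29) and of mir-277 with mir-34 (1.79) are filled, that is called by edgeR, and the pair of mir-317 with mir-34 (0.50) is not.

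As shares of all microRNA reads of a library, mir-277 took 0.81%, 0.78% and 0.70% in the intestine, against 4.15% and 3.02% in the carcass. mir-317 took 3.04%, 2.48% and 2.52% in the intestine, against 2.61% and 2.61% in the carcass, so the intestine libraries lay on both sides of the carcass values. mir-34 took 7.84%, 8.33% and 8.53% in the intestine, against 9.86% and 12.5% in the carcass. On this scale the intestine mean was 21.3% of the carcass mean for mir-277, 102.8% for mir-317 and 73.7% for mir-34. The whole cluster took 11.7%, 11.6% and 11.7% of the intestine libraries and 16.6% and 18.1% of the carcass libraries. Of the difference of -5.69 percentage points between the means, mir-277 accounted for -2.82, mir-34 for -2.94 and mir-317 for 0.074. Shares that do not overlap between the tissues were found in 87.8% of the tested hairpins and in 89.1% of the tested clusters and single hairpins.

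Tests on levels, unlike ratios, depend on the scaling. With trimmed mean of M-values (TMM) factors, which are computed from microRNAs of moderate change, the log2 fold changes of the 222 tested arms had a median of -0.50, against -1.02 with library totals. Hairpin sums were fitted with factors of their own, which gave a median of -0.70 over the 139 tested hairpins, against -1.43 with library totals. The fold change of a hairpin therefore stands on another scale than those of its arms, and that of mir-317 and of mir-34 exceeds both of its arms. By edgeR the hairpin mir-277 had a log2 fold change of -1.50 (SE 0.25, adjusted p = 0.000186) and mir-317 of 0.79 (SE 0.25, adjusted p = 0.0116). mir-34 had 0.29 (SE 0.18) and did not pass the test (adjusted p = 0.166). At this threshold 84.9% of the 139 tested hairpins were called, 51.1% lower and 33.8% higher in the intestine, so a call is the common outcome here. Without intestine replicate 1 mir-317 had 0.46 and stayed called (adjusted p = 0.0264). With library totals mir-277 had -2.23 and stayed called, mir-317 had 0.040 and was not called (adjusted p = 0.823), and mir-34 was called lower with -0.44 (adjusted p = 0.0174). mir-34 had 0.29 without carcass replicate 2 and -0.010 without carcass replicate 1. The whole cluster had 0.042 (SE 0.13, adjusted p = 0.766) with TMM factors and -0.57 (adjusted p = 0.000416) with library totals, so no direction is given for its total. Of the 92 tested clusters and single hairpins, 84.8% were called, 47.8% lower and 37% higher.

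Among the arms, miR-277-3p, the arm that acts in amino acid metabolism, showed the largest difference. It measured 9099, 8660 and 8040 TMM-scaled CPM in the intestine libraries and 32103 and 24210 in the carcass libraries. Every intestine value was less than the lower carcass value. The mean was 8600 ± 532 in the intestine and 28157 ± 5581 in the carcass (SD, n = 3 and 2), a log2 fold change of -1.71 (SE 0.20, edgeR adjusted p = 2.03e-09). Ranked among all 479 arms it was at place 22 to 25 in the intestine libraries and at places 6 and 7 in the carcass libraries. The values of the neuronal, muscle and testis markers given above move with this difference in the same direction, and their part in it was not tested.

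The partner arm miR-277-5p measured 250, 203 and 253 TMM-scaled CPM in the intestine libraries and 427 and 727 in the carcass libraries. The groups did not overlap, and the carcass libraries differed by more than the intestine ones. On the log2 scale it differed by -1.30 (SE 0.26, edgeR adjusted p = 2.70e-05). Both miR-277 arms were called lower under all 13 alternative settings. These include the fits with a single carcass library, which take their spread from the intestine group alone. Of the 222 tested arms 82.9% were called, 48.2% lower and 34.7% higher in the intestine, and 87.8% did not overlap between the tissues, as was the case for 5 of the 6 member arms.

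miR-317-3p measured 33125, 27053 and 28811 TMM-scaled CPM in the intestine libraries and 19672 and 20670 in the carcass libraries. All intestine values lay above the carcass values on this scale, and on the log2 scale the arm differed by 0.56 (SE 0.20, edgeR adjusted p = 0.0102). With library totals the same arm had 28823, 23907 and 24224 CPM in intestine libraries and 25101 and 25056 CPM in carcass libraries, where the groups overlap and the log2 fold change was 0.033 (adjusted p = 0.880). Leaving out intestine replicate 1, 2 or 3 lowered it to 0.23, 0.47 or 0.33 and ended the call (adjusted p = 0.271, 0.0995 and 0.212). Its rank was 9, 12 and 12 in the intestine, against 8 and 10 in the carcass.

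miR-317-5p measured 1833, 1060 and 1148 TMM-scaled CPM in the intestine libraries and 778 and 835 in the carcass libraries. Intestine replicate 1 stood above the other two, and without it the log2 fold change of 0.74 (SE 0.26, edgeR adjusted p = 0.00899) came to 0.21 and was not called (adjusted p = 0.386). With library totals it had 0.22 (adjusted p = 0.393).

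miR-34-5p, the neuroprotective arm, was at place 3 or 4 by reads in every library. It measured 87716, 92089 and 99033 TMM-scaled CPM in the intestine libraries and 75265 and 100979 in the carcass libraries. The intestine values lay between the carcass values, and the log2 fold change of 0.077 (SE 0.18) did not pass the test (edgeR adjusted p = 0.689). With library totals the values were 76324, 81379 and 83267 CPM in intestine libraries and 96036 and 122408 in carcass libraries, and the arm was called lower at -0.44 (adjusted p = 0.0179). miR-34-3p measured 2328, 2126 and 2441 TMM-scaled CPM in the intestine libraries and 1995 and 1961 in the carcass libraries, with a log2 fold change of 0.22 (SE 0.23, edgeR adjusted p = 0.387).

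**Figure D5:**
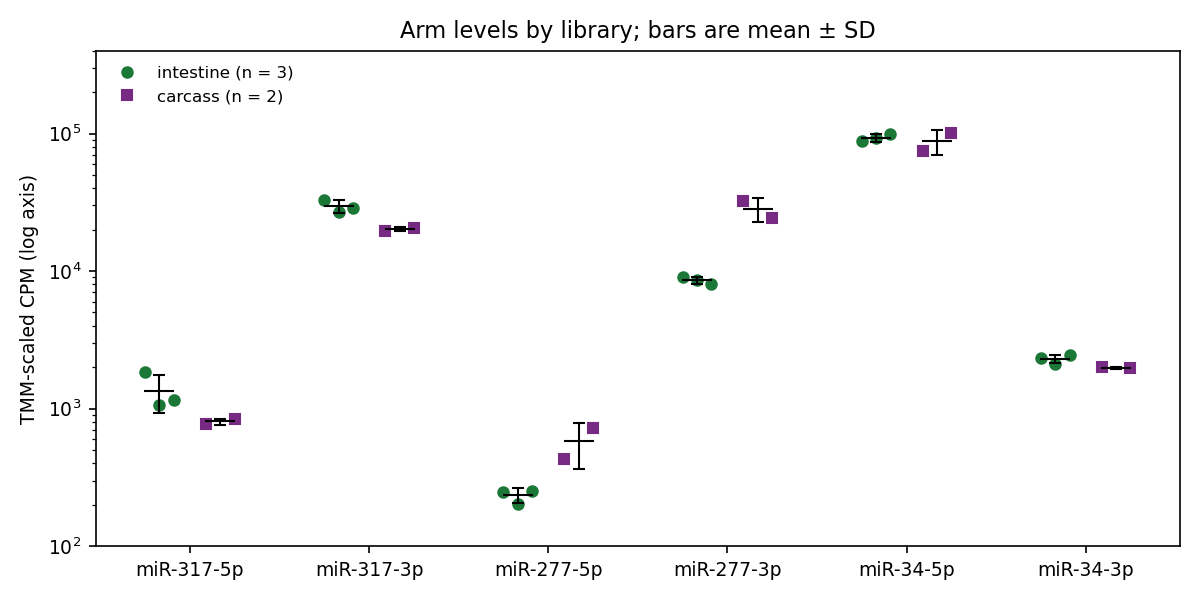
TMM-scaled CPM of the 6 arms in each library on a log axis, with intestine libraries as circles, carcass libraries as squares, and black bars for mean ± SD (n = 3 and 2). miR-277-3p and miR-277-5p lie lower in every intestine library than in both carcass libraries, and the intestine values of miR-34-5p (87716 to 99033) fall between those of the carcass (75265 and 100979).

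The split between the arms of each hairpin was compared next, as a second ratio that needs no scaling. miR-317-5p held 5.24%, 3.77% and 3.83% of the reads of its hairpin in the intestine, against 3.81% and 3.88% in the carcass. miR-34-3p held 2.59%, 2.26% and 2.41% in the intestine, against 2.58% and 1.905% in the carcass. miR-277-5p held 2.67%, 2.29% and 3.05% in the intestine, against 1.31% and 2.92% in the carcass. The tissues overlapped for all 3 hairpins, while they did not for 43.5% of the 85 hairpins with both arms tested, and the same arm was dominant in every library.

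The log2 ratio of 3p to 5p reads differed between the intestine and the carcass by -0.19 (SE 0.26) for mir-317, -0.41 (SE 0.28) for mir-277 and 0.14 (SE 0.25) for mir-34. None passed the test (edgeR adjusted p = 0.610, 0.307 and 0.690), whereas 21.2% of 85 hairpins did. By limma 15.3% of the hairpins passed, and the 95% intervals were -0.65 to 0.36 for mir-317, -1.21 to 0.31 for mir-277 and -0.35 to 0.60 for mir-34. A 2-fold lower ratio of 3p to 5p reads of mir-277 in the intestine is thus within the interval, but a 2-fold higher ratio is not. Without carcass replicate 2 the edgeR difference of mir-277 was -1.04, and without carcass replicate 1 it was 0.14.

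The carcass libraries themselves differed in the arms of mir-277. miR-277-3p was higher in carcass replicate 1 than in replicate 2 by 0.41 on the log2 scale, while miR-277-5p was lower there by 0.77. The log2 ratio of 3p to 5p reads was 1.17 higher in replicate 1, the largest absolute difference among the 42 hairpins with at least 100 reads of each arm in each carcass library, whose median was 0.30. The Wilson 95% intervals of the miR-277-5p share were 1.23 to 1.40% in carcass replicate 1 and 2.81 to 3.03% in replicate 2. In the intestine its intervals overlapped between the 3 libraries, with bounds of 1.80 and 3.83%. The corresponding differences between the carcass libraries were 0.030 for mir-317 and 0.45 for mir-34.

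Among the 130 tested arms with a mean of at least 100 CPM, the intestine libraries spanned 0.18 on the log2 scale for miR-277-3p and 0.18 for miR-34-5p, less than the median of 0.40. miR-317-5p spanned 0.79 and ranked 26 of 130. Between the carcass libraries miR-277-5p ranked 5 of 130 by the size of its difference, against a median of 0.30, and miR-34-3p, at 0.025, ranked 126.

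The arms with the most similar pattern over the 5 libraries were found by the root mean square difference of log2 CPM centred on each arm's own mean, among 129 other arms with at least 100 CPM. For miR-277-3p the closest were miR-999-3p (0.096), miR-8-5p (0.20) and miR-284-3p (0.26). They had log2 fold changes of -1.62, -1.30 and -1.67. For miR-317-3p the closest were miR-31a-5p (0.061), miR-965-3p (0.076) and miR-11-3p (0.091). For miR-34-5p they were miR-125-5p (0.13), miR-284-5p (0.16) and miR-184-3p (0.17). The members were not among each other's 3 closest. Between miR-317-3p and miR-34-5p the distance was 0.29, place 29 seen from miR-317-3p and place 14 seen from miR-34-5p. Between miR-277-3p and miR-34-5p it was 0.92, place 36 seen from miR-277-3p and place 78 seen from miR-34-5p. Between miR-277-3p and miR-317-3p it was 1.12, place 49 seen from miR-277-3p and place 86 seen from miR-317-3p.

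Other microRNAs linked to lifespan or ageing in flies were examined beside the cluster: let-7, mir-100 and mir-125 of the let-7 Complex, and mir-305, mir-282, mir-14 and mir-1000. Of their 14 arms 13 were tested, 7 were called higher and 1 lower in the intestine, with a median of 0.58 on the log2 scale, against -0.50 over the whole table, where 34.7% of arms were called higher and 48.2% lower. With library totals 4 arms of the list were higher and 2 lower, against 50 and 126 of all 222 tested arms. The list was chosen with earlier results of these data known, so these contrasts describe it and are not a test. miR-305-5p, which acts in intestinal stem cells, measured 20770 ± 1541 TMM-scaled CPM in intestine libraries and 10725 ± 1048 in carcass libraries (SD, n = 3 and 2), a log2 fold change of 0.95 (edgeR adjusted p = 9.19e-05). miR-14-3p had 0.86 and miR-14-5p 1.59. Like miR-34-5p, the abundant arms of the let-7 Complex did not pass the test, with 0.031 for let-7-5p, 0.27 for miR-125-5p and 0.41 for miR-100-5p. Nor did miR-282-5p (0.071) and miR-125-3p (0.27). The other called arms were miR-305-3p (1.17), let-7-3p (1.35), miR-100-3p (0.92) and miR-282-3p (0.58), all higher. The 1 lower arm was miR-1000-5p, a neuronal microRNA, with -4.81, and miR-1000-3p, with no intestine read and 36 carcass reads, was not tested.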

How the data were processed

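Small RNA was sequenced on a NextSeq500 from 3 intestine and 2 carcass libraries, per the labels' protocols. The deposited values are whole-number read counts per mature microRNA arm made by the authors, not normalised, 1 column per library. Tools named in the submitters' processing notes are Bowtie2 2.3.2, Subread 2.0.0, featureCounts and cutadapt 1.9.1. Build, strand setting and handling of multiply matching reads were not given in the sources used here. Column totals are microRNA reads and not library depth.

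Groups came from the titles. Members and lists were chosen with earlier results of these data known. All 479 rows were matched to BDGP6.54 (473 by name, 6 by synonym), whose agreement with the authors' build was not checked. Clusters were same-strand hairpins with gaps of at most 10000 bases. Counts of arms, hairpins (arms summed) and clusters were compared with edgeR 4.0.16 under R 4.3.3 (filterByExpr, minimum count 10, minimum total 15; TMM factors; quasi-likelihood test; Benjamini-Hochberg over all 222 arms, 139 hairpins or 92 clusters and single hairpins; threshold 0.05). Standard errors were obtained by dividing each absolute log2 difference by the root of its F. Ratios of hairpins and of arms were tested by diffSpliceDGE. Tested on simulated data, its arm version called too many unchanged hairpins, so limma 3.58.1 with trend on per-library log2 ratios (0.5 added to counts) is given beside it. The text names all member arms, the 3 arms closest to each dominant arm, and a list of ageing-linked microRNAs. Alternatives were library totals, upper-quartile or RLE factors, DESeq2 1.42.0, limma-voom, other low-count filters, a replicate block, the dominant arm alone, gaps of at most 20000 bases and dropping each library in turn. A single remaining carcass library takes its spread from the intestine group.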

Additional observations from a re-analysis of the deposited data

How the results depend on the processing

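Log2 differences are given, intestine over carcass. Counts of alternatives include the fits with a single carcass library, whose spread comes from the intestine group alone. The hairpin mir-277 was called lower under all 13 alternatives (-2.23 to -1.37), and its ratios to mir-317 and mir-34 kept direction and call in 11 of 12. The exception was the replicate block, with 2.23 (adjusted p = 0.0718) and -1.69 (adjusted p = 0.0789). Deviations of same-numbered libraries hardly correlated across arms (r = 0.026 and 0.021). The 2 carcass libraries deviate from their mean as mirror images, so this cannot tell whether the numbers pair libraries. The block left 2 of all pairs called and limma on ratios 15, against 9. Levels of the other members followed the scaling. mir-317 had 0.040 with library totals. mir-34 had -0.44 with library totals and -0.010 to 0.29 with a library left out. The cluster total was called in opposite directions by edgeR. It was higher with RLE factors (0.27, adjusted p = 0.0473). It was lower with upper-quartile factors (-0.43, 0.0130), library totals (-0.57, 0.000416) and no filter (-0.42, 0.00482). It had -0.021 with the block and -0.17 to 0.094 with a library left out. miR-34-5p had -0.28 with RLE factors, -0.012 with upper-quartile factors, -0.44 with library totals, -0.33 without a filter, -0.18 with a mean of at least 10 CPM, -0.28 with DESeq2 and -0.21 to 0.29 with a library left out. miR-34-3p had, in the same settings, -0.15 (RLE), -0.31 (library totals), -0.19 (no filter), -0.049 (10 CPM), -0.15 (DESeq2) and -0.077 to 0.24 (a library left out). miR-317-3p lost its call in 8 of 13 alternatives and miR-317-5p in 6. The arm ratio ran, with a library left out, from -0.29 to 0.016 for mir-317, from -1.04 to 0.14 for mir-277 and from -0.10 to 0.35 for mir-34. With the dominant arm alone, the mean cluster share of mir-277 was 6.57% in the intestine and 20.9% in the carcass, against 6.55 and 20.8%. The shares of mir-317 and mir-34 also moved by less than their SD in that setting. Leaving out 1 library always moves a group mean by less than its SD, so those settings do not test the shares. Why levels follow the scaling was not tested. The small number of libraries limits precision, and so does depth for miR-277-5p, with 66 to 119 reads in the intestine libraries.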
